A study of Mus musculus with 10 samples.

Results

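Solute carriers are the membrane proteins that move sugars, amino acids, ions, metals, vitamins and metabolites across membranes without spending ATP directly. The set described here holds the 193 genes, of 12791 in the deposited table, whose symbol is Slc, a family number, the letter a and a member number, with Slc40a1, Slc11a1 and Slc4a1 left out. Of these, 38 are mitochondrial carriers of family Slc25 and 150 are carriers of other families. The other 5 carry such a symbol without encoding a carrier. Slc9a3r1 and Slc9a3r2 encode scaffold proteins that bind a sodium/proton exchanger, and Slc4a1ap, Slc7a6os and Slc2a4rg-ps take only their names from a carrier. A further 18 carrier genes, the Slco genes and families Slc35b to Slc35f, lie outside the symbol pattern.

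The study measured RNA of hematopoietic progenitor cells from the bone marrow of C57BL/6 mice, isolated as Lin- c-Kit+ Sca-1- cells and profiled in bulk. There were 10 libraries in 3 groups by label: 3 naive libraries from mice without tumor, and 4 KDR-negative and 3 KDR-positive libraries from mice with late-stage GL261 tumors at week 4. GL261 is a mouse glioma line, and cells that express the VEGF receptor KDR were followed in KDR-GFP knockin mice, whose reporter shows activity of the Kdr locus. Age, sex, the implantation site, whether the naive mice carried the reporter and whether libraries came from separate or pooled mice stay unnamed in the labels, so the p-values below can speak only for the spread between these libraries, which may be technical.

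The authors' deposited table gives a log2 fold change, a mean log2 CPM (library-size-scaled counts), a p-value and a Benjamini-Hochberg adjusted p-value for 2 comparisons between groups. It holds no value per library, so depth is unknown and no value below has a standard deviation. Its header names neither the groups nor the direction. The comparisons are called the first and the second in column order, positive fold changes mean higher in what is called the numerator group, and the groups each comparison sets against each other cannot be told from it. Levels of single groups were worked out from mean and fold change together. Both comparisons share their denominator group in this derivation, which gives 3 levels per gene, in the order first numerator, denominator, second numerator. For the 119 members with a mean over 3 log2 CPM in both comparisons, the denominator level from the first comparison and that from the second differed by at most 0.054 (log2). Members with lower means could differ more. From the first and the second comparison Slc1a3 had 0.583 and 0.387 CPM, Slc16a9 1.29 and 1.13, and Slc37a2 1.84 and 1.67. The denominator levels printed below are those from the first comparison. For these genes the drop to the second numerator therefore looks larger than the deposited fold change. CPM values are not scaled to gene length, so levels are compared between groups and not between genes.

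Transporters of the plasma membrane set what a progenitor can take up. Heteromeric amino acid transporters pair a light chain of family Slc7 with the heavy chain encoded by Slc3a2, glucose enters through the Slc2 family, and lactate leaves through Slc16 members that need the chaperone basigin. Lysosomal carriers return the products of digestion to the cytosol, a task that is heavy in phagocytes. Mitochondrial carriers of family Slc25 exchange ADP for ATP, import phosphate and pass metabolites and iron across the inner membrane.

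In the first comparison 26 of the 193 solute carrier genes were higher and 3 were lower in the numerator group by the authors' deposited table (threshold 0.05 on its adjusted p), against 22.3% of all genes called there, 18.8% higher and 3.49% lower. Their median log2 fold change was -0.13, and that of all genes in the authors' deposited table was also -0.13. The members called higher ranged from 0.69 to 4.80 with a median of 1.71 (log2 fold change, authors' deposited table). All fold changes refer to the deposited scale, on which derived levels sum to 2127125 CPM in the first numerator group and to 756537 in its denominator group. Setting these totals equal lowers every fold change of the first comparison by 1.49 (log2), after which 18 of the 26 higher members stay above 0 and 8 fall below it.

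**Figure D1:**
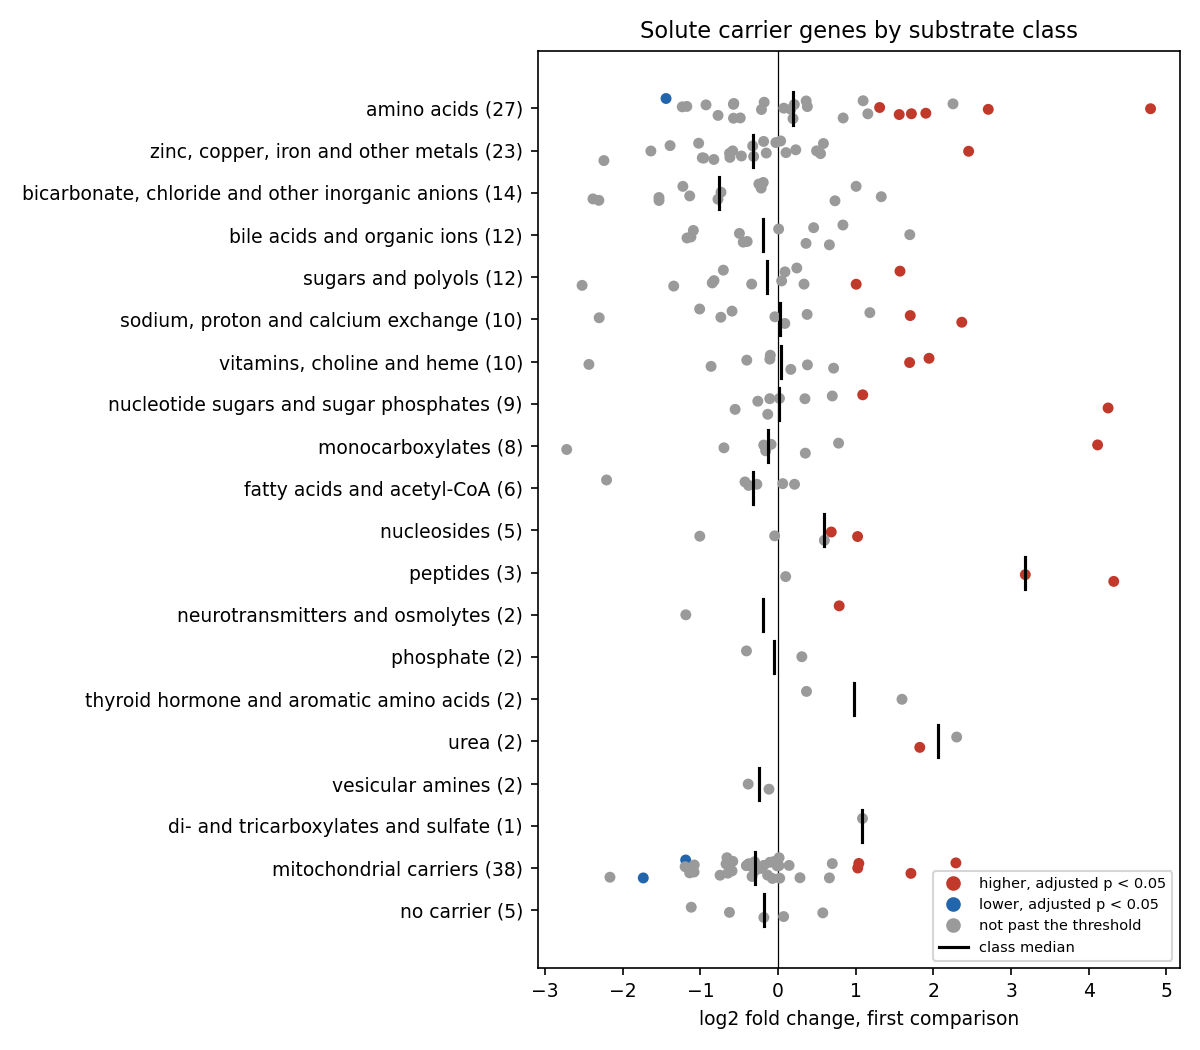
Log2 fold change of each solute carrier gene in the first comparison (x axis) by substrate class (y axis, number of genes in brackets). Each point is a gene, red where higher and blue where lower at an adjusted p under 0.05, and the black bar is the class median; the points at the far right are Slc1a3, Slc15a3, Slc37a2 and Slc16a9, and the 3 blue points are Slc38a5, Slc25a21 and Slc25a13.

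The share of members called went with their level, as it did for all genes. None of the 64 members with a mean under 3 log2 CPM was called, against 4.91% of the 3281 genes at that level. Between 3 and 6 log2 CPM 21 of 114 members were called, against 15.8% of all genes. At 6 to 7 log2 CPM 5 of 12 were called, against 52.9%, and from 7 log2 CPM on 3 of 3, against 95.5%. The median log2 fold change of all genes went along this scale from -0.54 at 3 to 4 log2 CPM to 0.77 at 6 to 7, and that of the members went from -0.22 to 0.68. After subtraction of the median of all genes in the same level bin, the members had a median of 0.14.

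**Figure D2:**
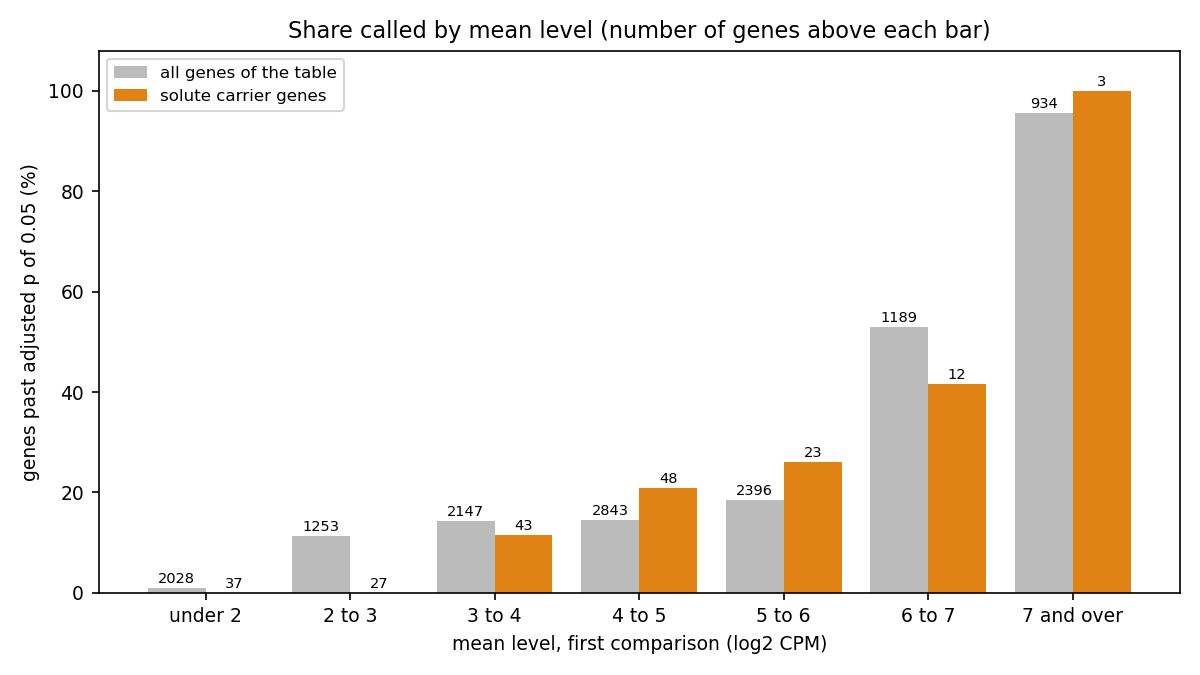
Percentage of genes past an adjusted p of 0.05 in the first comparison (y axis) by mean level in log2 CPM (x axis), for all genes (grey) and solute carrier genes (orange), with the number of genes above each bar. No member under 3 log2 CPM was called, and members were called in a smaller share than all genes at 3 to 4 and 6 to 7 log2 CPM. Their share was larger at 4 to 5, at 5 to 6 and, with 3 members, from 7 on.

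The largest fold changes were those of carriers with under 6 CPM in the denominator group. Slc1a3, a glutamate and aspartate transporter, had derived levels of 16.2, 0.583 and 0.203 CPM in the first numerator, denominator and second numerator groups. Its log2 fold of 4.80 by the authors' deposited table (adjusted p = 9.5e-05) is uncertain in size, with a denominator level under 1 CPM. At such a level it would depend on any prior count in the authors' fit, which is not stated. Slc15a3, a peptide and histidine transporter of endolysosomes, stood at 45.3, 2.26 and 1.53 CPM, with a log2 fold of 4.32 by the authors' deposited table (adjusted p = 4.3e-09). Both genes were high in the first numerator group alone and low in the other groups.

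Slc37a2, a sugar phosphate exchanger, followed the same order with 35.0, 1.84 and 1.04 CPM and a log2 fold of 4.25 by the authors' deposited table (adjusted p = 6.2e-08). Slc16a9, of the monocarboxylate transporter family, had 22.4, 1.29 and 0.809 CPM and a log2 fold of 4.12 by the authors' deposited table (adjusted p = 1.7e-05). These were the 4 members with a log2 fold change over 4. In bulk RNA of this kind, fewer cells of a type and less RNA per cell cannot be told apart.

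Peptide carriers, a class of 3 measured genes, had 2 higher members, against 18.8% of all genes called higher. Beside Slc15a3, Slc15a2, the high-affinity peptide transporter of the cell surface, had derived levels of 42.0, 4.62 and 2.61 CPM and a log2 fold of 3.18 by the authors' deposited table (adjusted p = 2.9e-05). Slc15a4, the close relative of Slc15a3 in endolysosomes, had 24.96, 23.3 and 25.2 CPM and was not called (0.10 log2 fold in the authors' deposited table, with adjusted p = 0.97). The difference between these relatives was not tested.

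Lysosomal carriers formed a list drawn up with textbook locations, of which all 11 genes were in the table. In the first comparison 4 of 11 were higher and none lower, at a median log2 fold change of 0.16, against 22.3% of all genes called. Beside Slc15a3 these were Slc46a3, a lysosomal member of the folate transporter family, Slc48a1, which exports heme from the lysosome, and Slc29a3, a nucleoside exporter. Slc46a3 had 51.9, 13.5 and 12.5 CPM and a log2 fold of 1.94 by the authors' deposited table (adjusted p = 0.00013). For Slc48a1 the levels were 166, 51.4 and 53.9 CPM, with a log2 fold of 1.69 by the authors' deposited table (adjusted p = 1.4e-05). Slc29a3 had 43.8, 21.5 and 21.3 CPM and a log2 fold of 1.02 by the authors' deposited table (adjusted p = 0.012), which lies below 0 at equal totals. The other 7 genes of the list were not called, with log2 fold changes between -1.64 for Slc30a4 and 0.73 for Slc26a11 in the authors' deposited table.

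Markers of macrophages were set beside the carriers, and their part in the result was not tested. All 13 measured genes of a macrophage list were higher in the first numerator group, with log2 fold changes from 1.75 to 5.53 in the authors' deposited table. Their summed level was 4267 CPM in the first numerator group, 220 in the denominator group and 131 in the second numerator group. No gene of the list was at 0 in any group, and Mertk, at 0.226 CPM in the second numerator group, was the only one under 1 CPM. All 8 megakaryocyte markers were higher too, with summed levels of 1567, 189 and 132 CPM. Neutrophil markers had 5 of 7 genes higher and none lower, and B cell markers 6 of 8 lower and none higher. Of all genes, 18.8% were called higher and 3.49% lower. Kit, the gene of the c-Kit receptor used for sorting, had 38.8, 58.6 and 60.3 CPM and was not called in either comparison, nor was Cd34, another gene of progenitors. The 3 other genes of that progenitor list, which encode the granule proteins Mpo at 2.40, Elane at 2.37 and Prtn3 at 2.34, were higher in the first comparison by the authors' deposited table. Slc11a1 and Slc40a1, the metal exporters of phagosomes and of the cell surface that the set leaves out, had log2 fold changes of 5.67 and 3.44 in the authors' deposited table, and Slc4a1, the anion exchanger of red cells, 0.10.

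**Figure D3:**
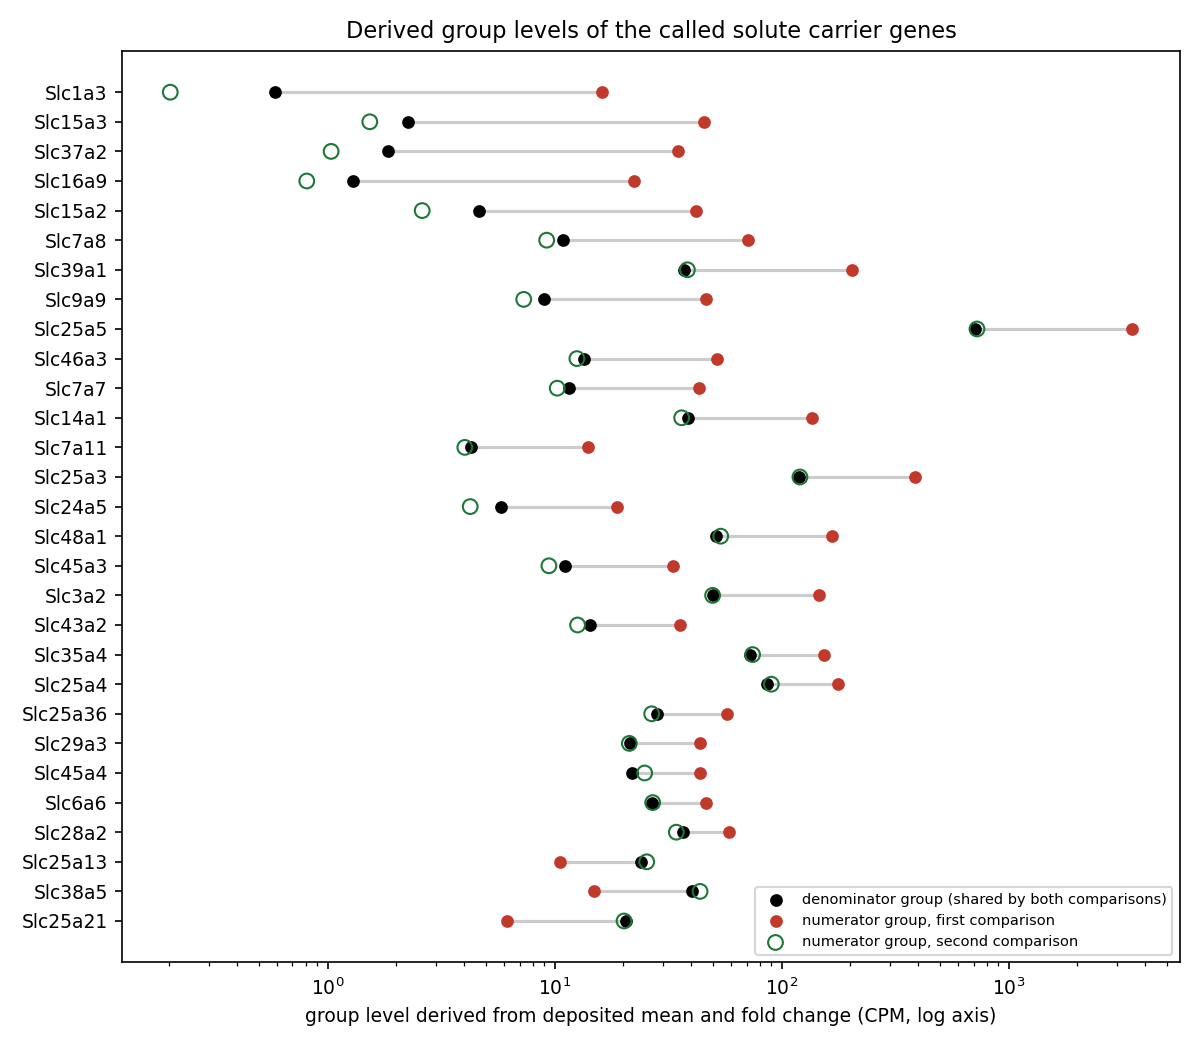
Group levels in CPM (x axis, log scale), derived from the deposited mean and fold change, for the 29 solute carrier genes called in the first comparison (y axis, ordered by fold change). Red points are the first numerator group, black points the denominator group as derived from the first comparison and open green circles the second numerator group. The green circles lie on or near the black points for genes over 20 CPM and to their left for the low genes at the top.

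Amino acid carriers were the largest class outside the mitochondria, with 6 of 27 higher and 1 lower (25.9% called, against 22.3% of all genes) and a median log2 fold change of 0.19. Of the heteromeric transporters, 4 of 6 measured genes were higher and none lower (22.3% of all genes called). Slc3a2, the heavy chain also known as CD98, had 146, 49.6 and 49.6 CPM and a log2 fold of 1.56 by the authors' deposited table (adjusted p = 8.8e-06). Among its light chains, Slc7a8, a neutral amino acid exchanger, had 71.2, 10.9 and 9.22 CPM and a log2 fold of 2.71 by the authors' deposited table (adjusted p = 1.0e-08). Slc7a7, the light chain that exports cationic amino acids, had 43.0, 11.5 and 10.3 CPM and a log2 fold of 1.90 by the authors' deposited table (adjusted p = 0.00045). Slc7a11, the cystine/glutamate exchanger that supplies cysteine for glutathione, had 14.0, 4.26 and 4.02 CPM and a log2 fold of 1.72 by the authors' deposited table (adjusted p = 0.020).

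Other amino acid carriers of general interest were not called. Slc7a5, the leucine transporter known as LAT1, had 60.7, 53.1 and 59.8 CPM and a log2 fold of 0.19 by the authors' deposited table (adjusted p = 0.73). Slc7a6 had 17.8, 26.5 and 26.6 CPM and a log2 fold of -0.57 by the authors' deposited table (adjusted p = 0.35). Slc1a5, the glutamine carrier ASCT2, was likewise not called, with 79.1, 61.6 and 60.9 CPM and a log2 fold of 0.36 by the authors' deposited table (adjusted p = 0.44). At equal totals Slc1a5 stood at -1.13. A missed threshold does not show that the levels of these genes were equal, and the difference between light chains was not tested. Slc7a6 and Slc7a6os are neighbouring genes, and whether counting used strand is not stated, so reads of the pair may not be separable.

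Family Slc38 carries glutamine and other neutral amino acids. Slc38a5 had 14.9, 40.4 and 43.7 CPM and a log2 fold of -1.44 by the authors' deposited table (adjusted p = 0.00028), the smallest p among the 3 lower members. It was called alone among 7 measured Slc38 genes, of which 4 lay below 0, with Slc38a1 at -0.77 (adjusted p = 0.071) and Slc38a2 at -0.21 (adjusted p = 0.73) in the authors' deposited table. Slc43a2, a carrier of large neutral amino acids, had 35.6, 14.4 and 12.6 CPM and a log2 fold of 1.31 by the authors' deposited table (adjusted p = 0.013), which lies below 0 at equal totals. The taurine transporter gene Slc6a6, placed with the osmolytes, had 46.5, 26.9 and 27.0 CPM and a log2 fold of 0.79 by the authors' deposited table (adjusted p = 0.043), also below 0 at equal totals.

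Sugar carriers were called in 2 of 12 cases (16.7%), against 22.3% of all genes, and neither was a glucose transporter of family Slc2. Of the 7 measured Slc2 genes none passed. Slc2a1, the glucose transporter GLUT1, had 14.3, 13.8 and 14.4 CPM (0.05 log2 fold in the authors' deposited table, with adjusted p = 1), and Slc2a3, the high-affinity GLUT3, had 23.4, 18.5 and 17.99 CPM (log2 fold change of 0.33, adjusted p = 0.64). At equal totals Slc2a1 stood at -1.445 and Slc2a3 at -1.157, so values near 0 depend on the scaling. The called members were Slc45a3, at 33.1, 11.1 and 9.43 CPM with a log2 fold of 1.57 by the authors' deposited table (adjusted p = 0.0054), and Slc45a4, at 43.8, 21.8 and 24.9 CPM with 1.01 (adjusted p = 0.021), of which the second lies below 0 at equal totals. Both belong to the proton-coupled sugar transporter family.

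Of the 8 monocarboxylate carriers 1 was called (12.5%, against 22.3% of all genes), Slc16a9, described above. Slc16a1, the lactate and pyruvate carrier MCT1, had 35.7, 37.999 and 42.1 CPM and a log2 fold of -0.09 by the authors' deposited table (adjusted p = 1). Slc16a3, the lactate exporter MCT4, had 15.3, 11.96 and 11.0 CPM and a log2 fold of 0.35 by the authors' deposited table (adjusted p = 0.77). At equal totals Slc16a1 stood at -1.582 and Slc16a3 at -1.14. The chaperone gene Bsg of these carriers, which is no solute carrier, was higher, with 269, 88.5 and 94.1 CPM and a log2 fold of 1.60 by the authors' deposited table (adjusted p = 2.0e-07), while Emb, the alternative chaperone, was not called at -0.58 (authors' deposited table).

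Metal carriers were mostly not called. Among 23 members, 11 of them zinc importers of family Slc39 and 7 zinc exporters of family Slc30, 1 was higher and none lower (4.35% called, against 22.3% of all genes), at a median log2 fold change of -0.33. The called gene, Slc39a1, is the zinc importer ZIP1 of the cell surface, and its derived levels were 204, 37.2 and 38.4 CPM. Its log2 fold change was 2.45 in the authors' deposited table, with adjusted p = 6.8e-13, the second smallest p of all members. Slc39a6, another importer, was lower but not called, just outside the threshold, with a log2 fold of -0.98 by the authors' deposited table (adjusted p = 0.056). Slc11a2, the iron importer DMT1, had 26.03, 32.7 and 35.2 CPM and a log2 fold of -0.33 by the authors' deposited table (adjusted p = 0.59), or -1.82 at equal totals.

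Exchangers of sodium, protons and calcium had 2 of 10 members higher, a share near the 18.8% of all genes called higher. Slc9a9, a sodium/proton exchanger of endosomes, had 46.4, 8.99 and 7.31 CPM and a log2 fold of 2.37 by the authors' deposited table (adjusted p = 7.8e-06). Slc24a5, a sodium/calcium exchanger known from pigment cells, had 18.8, 5.78 and 4.25 CPM and a log2 fold of 1.70 by the authors' deposited table (adjusted p = 0.0096). The 14 carriers of bicarbonate, chloride and other anions and the 12 of bile acids and organic ions had no called member, with medians of -0.75 and -0.20. No gene was called either among 6 carriers of fatty acids, 2 of phosphate, 2 of thyroid hormone and aromatic amino acids, 2 of vesicular amines and 1 of di- and tricarboxylates, or among the 5 rows that encode no carrier.

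The urea transporter gene Slc14a1, whose product carries the Kidd antigen on red cells, had 137, 38.6 and 36.3 CPM and a log2 fold of 1.82 by the authors' deposited table (adjusted p = 6.2e-08). Erythroid markers went both ways beside it, with 3 of 9 higher and 3 lower, against 18.8% and 3.49% of all genes. Their summed levels were 16386, 1309 and 1313 CPM, and their part was not tested. Slc28a2, a concentrative nucleoside transporter, was the called member nearest to the threshold, with 58.9, 36.6 and 34.3 CPM and a log2 fold of 0.69 by the authors' deposited table (adjusted p = 0.046). The equilibrative Slc29a1 was not called, with a log2 fold of 0.60 by the authors' deposited table (adjusted p = 0.18). Slc35a4, of the nucleotide sugar transporter family of the Golgi, had 154, 72.2 and 74.4 CPM and a log2 fold of 1.09 by the authors' deposited table (adjusted p = 0.0016). Slc28a2 and Slc35a4 both lie below 0 at equal totals. Among 15 further genes of families Slc35b to Slc35f, which the set leaves out, 2 were higher and none lower. That is 13.3% called, against 22.3% of all genes.

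Mitochondrial carriers were called in 6 of 38 cases (15.8%), 4 higher and 2 lower, against 22.3% of all genes. Their median log2 fold change was -0.30, and 19 of the 38 lay within 0.5 of 0. The higher ones include the ADP/ATP carriers and the phosphate carrier, which together supply the ATP synthase. Slc25a5, the ADP/ATP carrier of proliferating cells, had 3480.3, 712 and 725 CPM in the 3 groups. Its log2 fold of 2.29 by the authors' deposited table (adjusted p = 5.9e-14) had the smallest p of all members. Slc25a3, the phosphate carrier, had 388, 119 and 120 CPM and a log2 fold of 1.71 by the authors' deposited table (adjusted p = 2.2e-08). Slc25a4, the ADP/ATP carrier typical of muscle, had 178, 86.5 and 90.0 CPM and a log2 fold of 1.04 by the authors' deposited table (adjusted p = 0.0018).

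These 3 genes were the members with a mean of 7 log2 CPM or more. At that mean 95.5% of all genes were called, with a median log2 fold change of 1.80. Against the median of genes in the same level bin, Slc25a5 stood at 0.24, Slc25a3 at 0.20 and Slc25a4 at -0.47, so the direction of Slc25a4 depends on this choice and on the scaling, where equal totals also put it below 0. Slc25a4 and Slc25a5 encode similar proteins, and Slc25a5 has many processed copies in the genome, so reads may have been split between them in a way the labels leave unnamed. Slc25a36, a pyrimidine nucleotide carrier, had 57.4, 28.2 and 26.7 CPM and a log2 fold of 1.03 by the authors' deposited table (adjusted p = 0.00092). It stood 0.90 above the median of its level bin, and below 0 at equal totals.

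**Figure D4:**
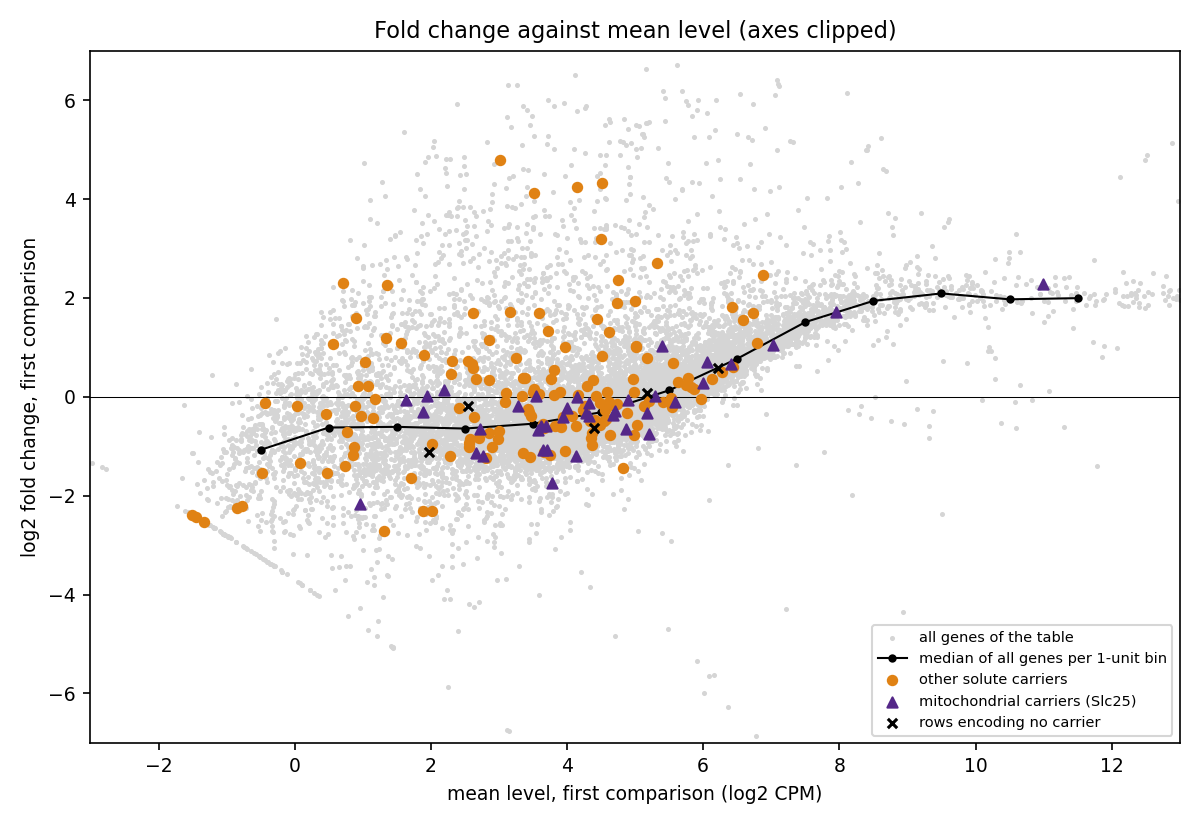
Log2 fold change in the first comparison (y axis) against mean level in log2 CPM (x axis) for all genes (grey), mitochondrial carriers (purple triangles), other solute carriers (orange) and rows encoding no carrier (black crosses), with the median of all genes per 1-unit bin (black line). The axes leave out 97 genes at the extremes; Slc25a3 and Slc25a5 are the rightmost triangles and lie near the line, while Slc1a3, Slc15a3, Slc37a2 and Slc16a9 lie far above it.

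The lower mitochondrial members were Slc25a21 and Slc25a13. Slc25a21, which carries oxoadipate and related acids, had 6.19, 20.6 and 20.2 CPM and a log2 fold of -1.74 by the authors' deposited table (adjusted p = 0.0039). Slc25a13, the aspartate/glutamate carrier citrin of the malate/aspartate shuttle, had 10.5, 24.1 and 25.4 CPM and a log2 fold of -1.19 by the authors' deposited table (adjusted p = 0.032). Slc25a12, the second aspartate/glutamate carrier, was the member nearest to the threshold outside it, with 27.4, 45.9 and 48.2 CPM and a log2 fold of -0.75 by the authors' deposited table (adjusted p = 0.052). Both aspartate/glutamate carriers thus lay below 0, 1 of them past the threshold.

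Iron and heme supply to mitochondria runs in part through Slc25a37, known as mitoferrin, its relative Slc25a28, and Slc25a38, a glycine carrier. None of these 3 genes was called. Slc25a37 had 22.4, 35.3 and 34.5 CPM and a log2 fold of -0.66 by the authors' deposited table (adjusted p = 0.15), and the values were -0.06 for Slc25a28 and -0.32 for Slc25a38. At equal totals Slc25a37 stood at -2.15.

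The 250 bases before the RefSeq start sites (GRCm38.p6) are shown for a pair of genes with large differences and low denominator levels, Slc1a3 and Slc37a2, and for a pair with broad expression in all 3 groups, Slc25a5 and Slc39a1, because their base composition differs. Capitals mark CpG dinucleotides, and each sequence runs 5′ to 3′ toward the gene. The windows are chr15:8710808-8711057 on the minus strand for Slc1a3, chr9:37255739-37255988 on the minus strand for Slc37a2, chrX:36795347-36795596 on the plus strand for Slc25a5 and chr3:90247942-90248191 on the plus strand for Slc39a1.
Slc1a3: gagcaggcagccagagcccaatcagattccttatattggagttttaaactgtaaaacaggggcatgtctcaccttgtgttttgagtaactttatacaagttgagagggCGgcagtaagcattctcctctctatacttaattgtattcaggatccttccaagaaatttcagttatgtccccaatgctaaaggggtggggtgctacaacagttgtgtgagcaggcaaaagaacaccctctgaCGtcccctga
Slc37a2: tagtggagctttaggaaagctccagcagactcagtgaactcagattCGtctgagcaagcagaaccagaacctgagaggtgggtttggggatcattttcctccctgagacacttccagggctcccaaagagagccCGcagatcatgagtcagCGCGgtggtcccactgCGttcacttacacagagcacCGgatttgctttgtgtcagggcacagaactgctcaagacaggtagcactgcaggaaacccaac
Slc25a5: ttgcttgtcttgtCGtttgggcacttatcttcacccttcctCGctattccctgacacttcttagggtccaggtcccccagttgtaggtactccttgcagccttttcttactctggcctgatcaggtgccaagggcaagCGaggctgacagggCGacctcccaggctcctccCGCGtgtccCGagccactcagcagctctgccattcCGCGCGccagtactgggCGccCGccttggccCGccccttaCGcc
Slc39a1: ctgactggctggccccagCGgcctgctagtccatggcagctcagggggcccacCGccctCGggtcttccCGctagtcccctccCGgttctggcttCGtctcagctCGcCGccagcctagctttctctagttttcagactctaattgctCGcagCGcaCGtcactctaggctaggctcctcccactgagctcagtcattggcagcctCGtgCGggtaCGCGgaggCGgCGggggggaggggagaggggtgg
The Slc1a3 stretch holds 2 CpG dinucleotides at 44.8% GC and the Slc37a2 stretch 6 at 53.6%, against 14 at 61.6% for Slc25a5 and 17 at 66.4% for Slc39a1.

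This contrast is not a rule of the set. Slc16a9, with a fold change near that of Slc37a2, has 18 CpG dinucleotides in its 250 bases, and Slc28a2, with a small one, has none. RefSeq windows of 300 bases (250 before to 50 after the start) matched 146 of the 193 members by gene, and 20 of the 26 higher ones. The median number of CpG dinucleotides was 17 in 193 member windows, 14 in the 26 windows of higher members and 13 in all windows of protein-coding genes. The E-box CACGTG, searched with its reverse complement, which is the same word, was in 15.0% of member windows, in 7.84% of windows of protein-coding genes and in 7.15% of all windows, but in 3.85% (1 of 26) of the windows of higher members. The motif TGATGNAA, the core of an element bound by C/EBP and ATF factors, was sought on both strands. It was in 3.63% of member windows and 3.97% of all windows, and in 15.4% (4 of 26) of the windows of higher members, all of them windows of Slc7a11, Slc7a7 or Slc9a9. This difference was not tested. The ETS word GAGGAAGT and an interferon regulatory factor (IRF) element, on both strands, were in 2.59% and 1.55% of member windows (3.20% and 3.44% of all windows) and in no window of a higher member. Windows of a gene can overlap, as those of Slc7a7 do, and a match is no evidence of binding.

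In the second comparison no solute carrier gene was called, against 0.109% of all genes, or 14 of 12791, with 0.0704% higher and 0.0391% lower. No member had an unadjusted p under 0.05 either, where 43 of all genes did, and the smallest p of a member was 0.305 in the authors' deposited table, for the vesicular amine transporter gene Slc18a2. The median log2 fold change of the members was -0.01 and that of all genes 0.00 (authors' deposited table). Of the 193 members 159 lay within 0.25 of 0 on the log2 scale. The extremes were Slc16a11 at -0.95 and Slc6a20a at 0.56 in the authors' deposited table, both with means under 2 log2 CPM in this comparison.

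The 26 members higher in the first comparison can be set beside their own values in the second, bearing in mind that both comparisons share the denominator group and that these genes were picked by the first. In the second comparison 17 of them lay below 0 and 9 above. The 7 with a denominator level under 6 CPM ranged from -0.93 for Slc1a3 to -0.06 for Slc7a11 (log2 fold change, authors' deposited table), with Slc15a2 at -0.79, Slc37a2 at -0.69, Slc16a9 at -0.48, Slc15a3 at -0.46 and Slc24a5 at -0.42. The 13 with a denominator level over 20 CPM ranged from -0.09 to 0.19. Macrophage markers had a median of -1.78 in the same comparison, with 1 of 13 lower and 12 of 13 below 0, and megakaryocyte markers -0.53, with none called and 8 of 8 below 0. Their part in the values of the 7 low carriers was not tested.

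Other genes of membrane transport were taken as lists, chosen with earlier results of these data known. Of 18 measured partners of carriers, 10 were higher and 3 lower in the first comparison (22.3% of all genes called). The higher ones include the mitochondrial porins Vdac1 at 1.62, Vdac2 at 1.47 and Vdac3 at 2.26, the mitochondrial pyruvate carrier subunit Brp44l at 1.61 and the uncoupling protein gene Ucp2 at 1.84, a mitochondrial carrier by structure (log2 fold changes, authors' deposited table). Their levels in the first numerator group were high, from 179 CPM for Ucp2 to 803 for Vdac3. By their derived levels the porins and Brp44l had a mean of 7 log2 CPM or more, where 95.5% of all genes were called. The median log2 fold change there was 1.80, above the values of Vdac1, Vdac2 and Brp44l. The mean of Ucp2 lay at 6 to 7 log2 CPM, where 52.9% of all genes were called and the median was 0.77. Beta subunits of the sodium pump, which builds the gradient that sodium-coupled carriers use, were called in both directions. Atp1b3 at 1.27 was higher, while Atp1b1 at -2.57 and Atp1b2 at -0.99 were lower in the authors' deposited table. Atp1b3 and Vdac2 lie below 0 at equal totals. ABC transporters, which pump with ATP, had 6 of 33 genes higher and 1 lower with a median of -0.40, a share called of 21.2% against 22.3% of all genes. The higher ones with the largest folds were Abcc3 at 5.17, Abcg3 at 4.05 and the cholesterol exporter Abca1 at 2.90 in the authors' deposited table. Of 3 Slco genes, Slco2b1 was higher at 5.26 and Slco3a1 lower at -1.29 in the authors' deposited table. None of these genes was called in the second comparison.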

How the data were processed

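Bulk RNA sequencing libraries of sorted bone marrow progenitors were prepared with a TruSeq kit from 0.1 ug RNA, per the labels' protocols. Build mm8 and Bowtie 0.12.2 appear in the submitters' processing notes with no role stated. Which programs counted and tested, and with which annotation, is not stated there. The deposited table holds, per the file headers, per gene and comparison the log fold change, its p-value with false discovery rate, and the average log CPM, and was used as it stands. The fold changes and mean CPM values of the authors are read as log2, since the denominator levels derived from the 2 comparisons under base 2 match. The deposited p-values of the authors were adjusted again by Benjamini-Hochberg over all 12791 genes, which gave the deposited adjusted values. The tests that need values per library could not be run.

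Group levels in CPM solve mean = w x numerator + (1 - w) x denominator. The weights w, 0.48 and 0.59, are those under which the denominator levels of 9044 genes over 3 log2 CPM in both comparisons differed least (median absolute difference of 0.0020, grid step 0.01). On means of 12791 genes simulated with the same formula and a shared denominator, the fit recovered the weights put in (error 0). This checks the fitting step only, and cannot show that the formula or the shared denominator holds for the deposited values. A gene was called at an adjusted p under 0.05. Substrate classes follow the Slc family with exceptions for single genes, and are textbook assignments. In each class and direction up to 4 called genes with a mean of at least 2 log2 CPM were named by smallest p, with the genes on either side of the threshold and 12 carriers of general interest. Slc43a2, Slc7a11 and the uncalled genes beyond these were named after their values were seen. The members and lists were chosen with earlier results of these data known. Lists are described by counts and medians, with no test. Promoter windows are those of RefSeq (GRCm38.p6), matched by gene and not by coordinates of the files. Alternatives changed the threshold, the genes adjusted over, the level filter, the scaling and the members. Python 3.11.15, pandas 2.3.3, numpy 2.4.6 and matplotlib 3.10.9 were used.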

Additional observations from a re-analysis of the deposited data

How the results depend on the processing

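The 29 calls of the first comparison became 22 at an adjusted p under 0.01, 40 under 0.1, 33 when only genes with a mean of at least 3 log2 CPM were adjusted, 29 without snoRNA, scaRNA and microRNA genes and 27 with a fold change of at least 2. At the level filter all 29 were kept, and Slc10a7, Slc12a2, Slc25a12 and Slc39a6 were added, which made 6 lower calls of 33. Under 0.1 the split was 30 higher and 10 lower, against 26 and 3. The 6 calls of mitochondrial carriers stayed within 1.5 times, and the second comparison had 0 calls of members at every setting. The median log2 fold change of the members in the first comparison, -0.13, was -0.029 in members with a mean of at least 3 log2 CPM, -0.001 with the median of all genes at 0, -1.63 at equal derived totals and 0.14 after subtraction of the median of all genes at the same level. At equal totals 8 called genes changed sign: Slc28a2 to -0.81, Slc6a6 to -0.71, Slc45a4 to -0.49, Slc29a3 to -0.47, Slc25a36 to -0.47, Slc25a4 to -0.45, Slc35a4 to -0.40 and Slc43a2 to -0.18. Less the median at its level, Slc25a4 stood at -0.47. These shifts follow from the alternatives' construction. No paired analysis was possible because the table holds no values per library, and for the same reason no replicate could be left out. Depth is unknown, and fold changes of genes under 1 CPM in a group are uncertain in size.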
